A study of Mus musculus with 4 samples.

Results

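The collagens and stromal matrix genes are 40 genes chosen by name: fibrillar and other collagens, basement membrane proteins, enzymes and chaperones of collagen, elastic fibre proteins, proteoglycans, and matrix glycoproteins. Each gene was represented by its brightest probe set with 1 gene symbol, which gave values for 38 of the 40, out of 12393 genes named in the same way. The probe set for Loxl2 also carried a second symbol, and neither Loxl2 nor Fbn1 was analysed here. Of the 38 genes, 32 lay above a filter on low signals (a signal of about 79.8) and were tested among 8145 genes. Of these 32, 31 lay above the filter in both groups, and Col6a1 did so in the vehicle arrays alone. The 6 others are given by their values.

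The cells were tumour-associated macrophages, sorted by flow cytometry from collagenase-digested gastrointestinal stromal tumours of mice that the labels call GIST mice. These sarcomas arise in the wall of the gut, mostly through activating mutations of the receptor kinase Kit. The first group had received imatinib, a small-molecule inhibitor of Kit and several other tyrosine kinases, in drinking water at 600 mg/L for 2 weeks, and the other group, labelled vehicle control, had not; each had 8 mice. The labels give neither the sorting gate nor the genotype, strain and age of the animals. The design text states that the sorted cells were pooled by group and that each pool was run in duplicate, while the titles call the 2 arrays of a group biological replicates. The p-values therefore reflect only how far arrays of a group differ, possibly for technical reasons, and 2 imatinib and 2 vehicle arrays limit their precision.

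Fibrillar collagens are secreted as procollagen, trimmed by proteases, and then crosslinked through lysines that the lysyl oxidase family oxidises. Basement membranes are thin sheets of type IV collagen, laminins, nidogen and the multiplexins under epithelium and around vessels, muscle and nerves. Fibroblasts and related stromal cells make most of the fibrillar matrix of the gut wall, epithelial and endothelial cells contribute to basement membranes, and macrophages are known for fibronectin and thrombospondin 1 more than for fibrillar collagen. In RNA of sorted cells, a lower level can mean fewer cells of a type or less RNA per cell, and the arrays cannot tell these apart.

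Promoter windows from RefSeq (build GRCm38.p6, matched by symbol, 250 bases before to 50 after the start site) were found for 24 of the 40 genes. The 7 below are shown because their genes carry the main contrasts: the fibrillar collagens Col1a2 and Col3a1 and the collagen-handling genes Pcolce and Serpinh1 fell with imatinib, Col4a1 and Col4a2 are neighbours that lie head to head, and Serpinf1 rose. Capitals mark matches on either strand to TATAAA (the core of a TATA box), CCAAT (the CAAT box), GGGCGG (the GC box) or TGANTCA (the site of AP-1), and no matches overlapped in these windows. A match describes the letters and is not a site in use.
Col1a2, chr6:4505368-4505667, plus strand: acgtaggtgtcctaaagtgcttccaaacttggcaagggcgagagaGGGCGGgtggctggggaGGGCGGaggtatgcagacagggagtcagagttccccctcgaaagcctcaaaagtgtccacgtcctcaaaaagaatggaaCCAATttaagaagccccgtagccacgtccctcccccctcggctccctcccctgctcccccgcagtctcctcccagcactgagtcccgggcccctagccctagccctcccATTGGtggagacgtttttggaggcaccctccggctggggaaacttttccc
Col3a1, chr1:45311288-45311587, plus strand: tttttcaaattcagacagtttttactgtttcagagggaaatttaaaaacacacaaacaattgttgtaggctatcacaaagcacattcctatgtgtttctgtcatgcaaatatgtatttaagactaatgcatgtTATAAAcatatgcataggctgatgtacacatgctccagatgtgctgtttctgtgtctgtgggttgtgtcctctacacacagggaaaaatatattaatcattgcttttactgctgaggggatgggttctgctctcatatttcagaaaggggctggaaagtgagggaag
Pcolce, chr5:137611355-137611654, minus strand: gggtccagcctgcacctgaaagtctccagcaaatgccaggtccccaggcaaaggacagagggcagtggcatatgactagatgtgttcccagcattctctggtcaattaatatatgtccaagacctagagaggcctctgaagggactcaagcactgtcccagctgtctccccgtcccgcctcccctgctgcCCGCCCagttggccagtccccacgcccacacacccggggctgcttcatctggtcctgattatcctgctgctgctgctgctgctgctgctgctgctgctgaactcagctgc
Serpinh1, chr7:99353190-99353489, minus strand: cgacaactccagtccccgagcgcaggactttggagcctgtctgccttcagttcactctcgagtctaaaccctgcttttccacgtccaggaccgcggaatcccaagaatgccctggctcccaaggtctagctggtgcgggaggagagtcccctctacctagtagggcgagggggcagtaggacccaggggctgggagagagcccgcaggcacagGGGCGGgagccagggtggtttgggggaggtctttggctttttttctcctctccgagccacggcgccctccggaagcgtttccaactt
Col4a1, chr8:11312777-11313076, minus strand: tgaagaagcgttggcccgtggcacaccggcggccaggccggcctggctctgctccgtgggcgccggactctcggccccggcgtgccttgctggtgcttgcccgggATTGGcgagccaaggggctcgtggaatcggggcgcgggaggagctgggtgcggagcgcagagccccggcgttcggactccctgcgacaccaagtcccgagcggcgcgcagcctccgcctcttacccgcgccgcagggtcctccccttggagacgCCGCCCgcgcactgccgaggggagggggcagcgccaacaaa
Col4a2, chr8:11312555-11312854, plus strand: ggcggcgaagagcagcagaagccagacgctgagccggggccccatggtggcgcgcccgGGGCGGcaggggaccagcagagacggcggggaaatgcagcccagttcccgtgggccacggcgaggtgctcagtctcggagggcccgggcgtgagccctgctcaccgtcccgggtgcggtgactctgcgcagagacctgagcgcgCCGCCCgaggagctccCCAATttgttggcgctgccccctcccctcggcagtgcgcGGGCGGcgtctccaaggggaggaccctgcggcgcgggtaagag
Serpinf1, chr11:75422574-75422873, minus strand: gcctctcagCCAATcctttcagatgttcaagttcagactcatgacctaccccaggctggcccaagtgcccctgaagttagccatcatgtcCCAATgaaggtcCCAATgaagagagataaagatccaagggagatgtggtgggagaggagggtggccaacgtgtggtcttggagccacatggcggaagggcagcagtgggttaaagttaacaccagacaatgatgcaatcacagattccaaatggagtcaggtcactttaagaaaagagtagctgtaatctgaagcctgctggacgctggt

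The windows of Col4a1 and Col4a2 share 78 bases (chr8:11312777-11312854) that are read from opposite strands. The GC box letters occurred in 15 of the 24 matrix gene windows and in 35.7% of all 32851 windows. Of the 9 windows of genes that fell, 6 held them (Pcolce, Col1a2, Serpinh1, Col4a1, Fstl1 and Bgn). The CCAAT letters occurred in 10 of the 24 windows, in Col1a2 and Col4a1 among those 9, and in 37.4% of all windows. The TATA box letters occurred in 2 of the 24 windows, with Col3a1 alone among the 9 (13.6% of all windows), and the AP-1 letters in 1 of the 24 and 0 of the 9 (7.81% of all windows). The window of Serpinf1 held the CCAAT letters at 3 places and no GC box letters.

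The 32 tested matrix genes were mostly lower in the imatinib arrays. By limma, with a Benjamini-Hochberg adjusted p under 0.05, 14 fell, where 8.73% of all tested genes did, and 1 rose, where 6.8% did. The median log2 difference, imatinib minus vehicle, was -0.61 for the 32 genes and -0.02 over the 8145 tested genes. The difference was negative for 29 of the 32 genes, Col6a1 among them, and for 4299 of the 8145 tested genes. Both imatinib arrays lay below both vehicle arrays for 27 of the 32 genes, where 29.9% of tested genes did so, and above them for 2, where 26.1% did. The signal summed over the 38 genes was 10925 and 11456 on the imatinib arrays, against 17825 and 18309 on the vehicle arrays.

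**Figure D1:**
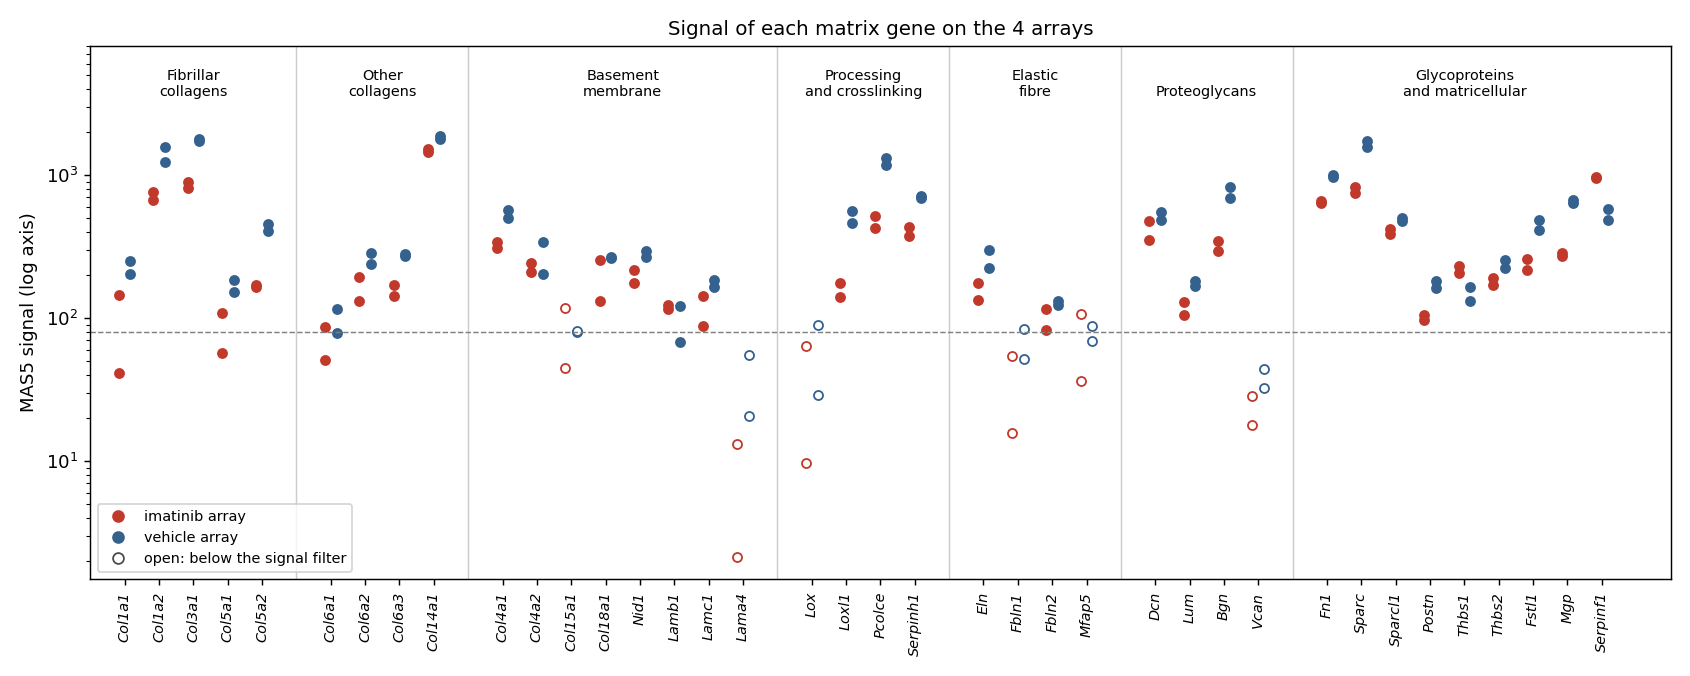
MAS5 signal (log axis) of the 38 matrix genes on each array, with imatinib arrays to the left of vehicle arrays for each gene and classes separated by vertical lines; the dashed line is the signal filter and open points are genes below it. Signals compare arrays within a gene, not genes with each other. Serpinf1 and Thbs1 are the 2 genes whose imatinib arrays both lie above both vehicle arrays.

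Of the 5 fibrillar collagen genes, 4 fell, and the median log2 difference of the 5 was -1.02. Col3a1, the chain of type III collagen, had signals of 809 and 896 on the imatinib arrays, against 1744 and 1783 on the vehicle arrays. The groups were well separated, and the log2 difference was -1.02 ± 0.10 (SE, limma adjusted p = 4.4e-05). It was not called when probe sets that may hit several transcripts were left out, which leaves a dimmer one for this gene (-0.65, adjusted p = 0.051; from 3.3e-06 to 0.051 over 11 other settings). Col1a2, the second chain of type I collagen, had 670 and 764 with imatinib, against 1234 and 1569 with vehicle (log2 difference -0.93 ± 0.13, SE, limma adjusted p = 0.00056). Col5a2, a chain of type V collagen, which seeds fibrils, had 171 and 166 with imatinib, against 454 and 410.3 with vehicle. The log2 difference of Col5a2 was -1.21 ± 0.16 (SE, limma adjusted p = 0.00037), with no overlap between the groups. Col3a1 and Col5a2 are next to each other on their chromosome among protein-coding genes.

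Col1a1, which encodes the main chain of type I collagen, was the least certain of these. Its signals were 41.4 and 146 on the imatinib arrays, against 252 and 202 on the vehicle arrays, so that the imatinib arrays differed from each other by more than the nearer of them did from vehicle. The log2 difference was -1.17 ± 0.35 (SE, 95% interval -1.95 to -0.40, limma adjusted p = 0.046). It passed under 5 of 10 other settings, with adjusted p from 0.0043 to 0.17, and in 1 of the 4 fits without 1 array. The difference ranged there between -0.53 without imatinib replicate 1 and -1.81 without imatinib replicate 2. Without vehicle replicate 1 it was -1.03 (adjusted p = 0.17), and without vehicle replicate 2 it was -1.31 (adjusted p = 0.064). Col5a1, the partner chain of Col5a2, had 57.0 and 109 with imatinib, against 153 and 185 with vehicle, and did not pass (-0.84 ± 0.27, SE, limma adjusted p = 0.064).

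Of the 4 other collagens, Col6a3 fell, with 144 and 171 on the imatinib arrays, against 283 and 274 on the vehicle arrays. It encodes a chain of type VI collagen, which forms beaded microfilaments around cells. The log2 difference of Col6a3 was -0.72 ± 0.18 (SE, limma adjusted p = 0.021), and it was not called without vehicle replicate 1 (adjusted p = 0.086), vehicle replicate 2 (0.062) or imatinib replicate 1 (0.11), nor with the filter on low signals removed (0.073; from 0.00067 to 0.073 over 10 other settings). Col6a2, a second chain, had 133 and 193 with imatinib, against 240.1 and 285 with vehicle (-0.61 ± 0.21, SE, limma adjusted p = 0.074). The third chain, Col6a1, was dim and its groups overlapped, with 87.5 and 51.2 with imatinib, against 79.4 and 117 with vehicle. Col14a1, a collagen of fibril surfaces, had 1519 and 1449 with imatinib, against 1864 and 1780.4 with vehicle. Its groups did not overlap but lay close together (-0.29 ± 0.09, SE, limma adjusted p = 0.054), and its other probe set above the filter gave 0.0040. Col14a1 passed as lower under quantile normalization, with a stricter filter and on the macrophage-marker scale described below.

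Among 6 tested basement membrane genes, Col4a1 alone fell, and the median log2 difference of the 6 was -0.45. Col4a1 encodes a chain of type IV collagen, the network former of basement membranes, and its signals were 308 and 342 with imatinib, against 568 and 502 with vehicle (-0.67 ± 0.14, SE, limma adjusted p = 0.0080). Col4a2, which encodes the chain that assembles with it and shares its promoter region, did not separate the groups. It had 245 and 209.7 with imatinib, against 205 and 343 with vehicle, a log2 difference of -0.20 with a 95% interval from -0.69 to 0.28. These intervals overlap, and the difference between the genes was not tested. Col4a1 was not called when vehicle replicate 1 (adjusted p = 0.053) or imatinib replicate 1 (0.051) was left out, or when its probe sets were averaged (0.063; from 0.00021 to 0.063 over 11 other settings).

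The other basement membrane genes did not pass. Nid1, the linker nidogen, had 176 and 219 with imatinib, against 266 and 294 with vehicle (-0.45, limma adjusted p = 0.12). Lamc1, the laminin gamma chain shared by most laminins, had 88.0 and 144 with imatinib, against 186 and 164 with vehicle (-0.51, adjusted p = 0.20). In both genes the groups were separate. Col18a1, the source of the fragment endostatin, had 132 and 255 with imatinib, against 266 and 262 with vehicle, and imatinib replicate 1 carried the difference of -0.45 (-0.04 without it). Lamb1, a laminin beta chain, was dim and had a positive difference of 0.29 with a 95% interval from -0.31 to 0.89. Lama4, a laminin alpha chain of vessels and muscle, and Col15a1 lay below the filter. Lama4 had 2.13 and 13.3 with imatinib, against 55.3 and 20.8 with vehicle, and Col15a1 had 118 and 44.9 with imatinib, against 79.6 and 81.1 with vehicle.

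The 3 tested genes for collagen folding, processing and crosslinking all fell, with a median log2 difference of -1.35. Loxl1, a lysyl oxidase that crosslinks elastin and collagen, had 177 and 141 on the imatinib arrays, against 464 and 562 on the vehicle arrays. The groups were far apart, with a difference of -1.51 ± 0.17 (SE, limma adjusted p = 0.00014). Pcolce, the enhancer of the protease that trims procollagen, had 424 and 522 with imatinib, against 1172 and 1327 with vehicle (-1.35 ± 0.13, SE, limma adjusted p = 3.7e-05). Serpinh1, the collagen chaperone Hsp47 of the endoplasmic reticulum, had 376 and 434 with imatinib, against 710.3 and 689 with vehicle (-0.74 ± 0.13, SE, limma adjusted p = 0.0023). No imatinib array overlapped a vehicle array in these 3 genes, and each kept its call in all 4 fits without 1 array. Lox itself, the founding lysyl oxidase, lay below the filter, with 9.68 and 63.9 with imatinib, against 29.0 and 89.1 with vehicle. The arrays of each group lay farther apart than the group means of 36.8 with imatinib and 59.0 with vehicle.

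Fibrillar, processing and crosslinking, and basement membrane genes differed in size of change as a description. In the processing and crosslinking class, Loxl1 is the only crosslinking enzyme among the 3 tested genes. Its relative Loxl3, of the wider list described below, had a difference of 0.13 (limma adjusted p = 0.69). The mean over the tested fibrillar genes, on the log2(signal + 32) scale and relative to its mean on the vehicle arrays, was -1.26 and -0.81 on the imatinib arrays. That of the processing and crosslinking genes was -1.23 and -1.17, and that of the basement membrane genes was -0.46 and -0.21. On each imatinib array the basement membrane genes thus stood nearer to their vehicle level than the genes of the other 2 classes. The classes were not tested against each other, because the genes were chosen with results of these arrays known. Leaving out imatinib replicate 1 moved the basement membrane median to -0.27, and leaving out imatinib replicate 2 moved it to -0.66.

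**Figure D2:**
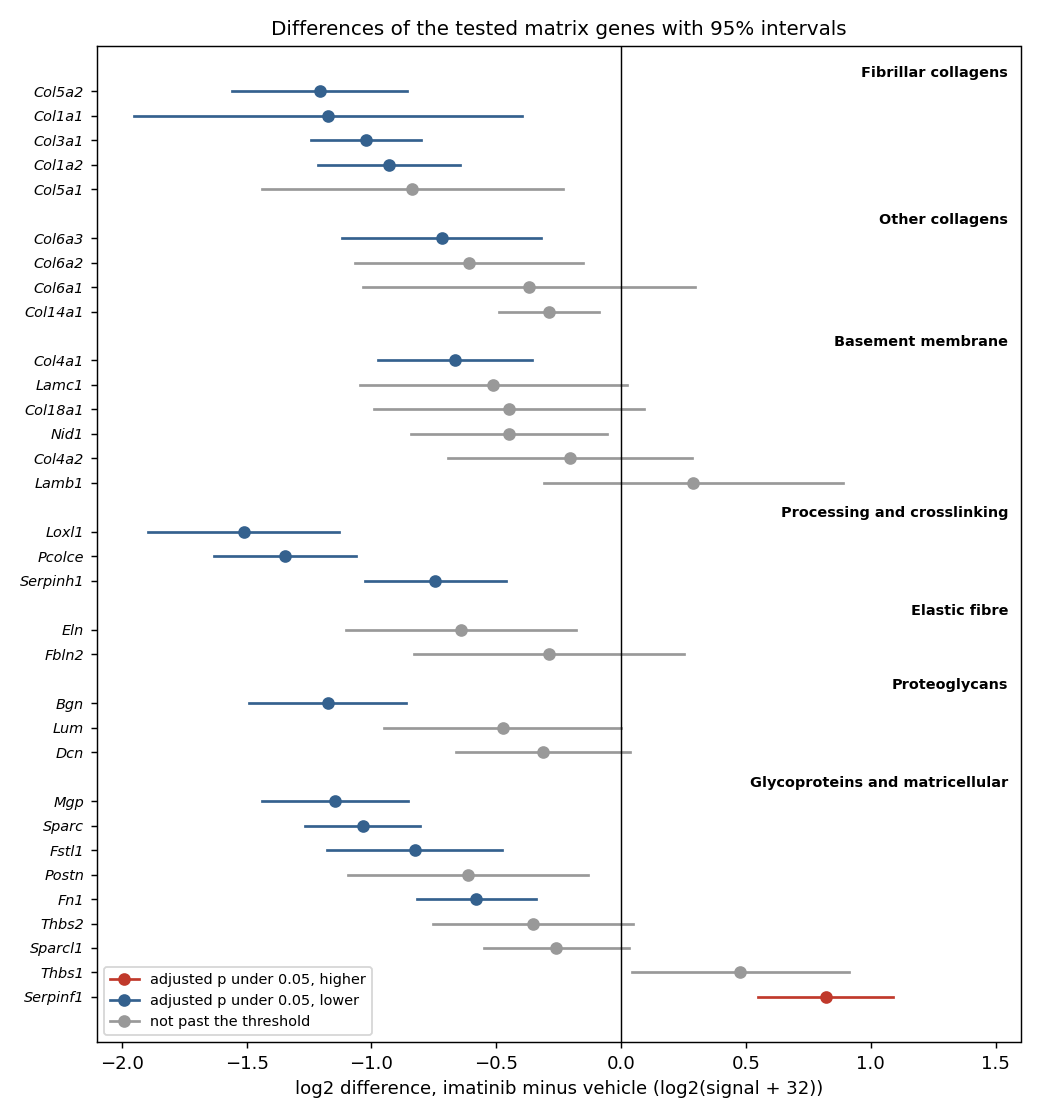
Log2 difference, imatinib minus vehicle, of log2(signal + 32) for each of the 32 tested matrix genes, with 95% intervals from limma and genes grouped by class. Blue genes were lower and the red gene was higher at an adjusted p under 0.05, and grey genes did not pass; the fibrillar and the processing and crosslinking genes lie farther left than the basement membrane genes.

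Of the 3 tested proteoglycan genes, 1 fell. This was Bgn, the small leucine-rich proteoglycan biglycan, with 346 and 294 on the imatinib arrays, against 698 and 831 on the vehicle arrays (-1.18 ± 0.14, SE, limma adjusted p = 0.00021). Its 2 relatives decorin and lumican did not pass: Dcn had 353 and 478 with imatinib, against 548 and 489.6 with vehicle (-0.31, limma adjusted p = 0.23), and Lum had 131 and 105 with imatinib, against 183 and 168 with vehicle (-0.47, adjusted p = 0.18). The groups nearly met in Dcn, where imatinib replicate 2 was nearly at the level of vehicle replicate 2. Vcan, the large proteoglycan versican, lay below the filter at 17.9 and 28.7 with imatinib, against 32.3 and 44.3 with vehicle.

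Of the 2 tested elastic fibre genes, 0 passed limma's adjusted threshold and 1 had an unadjusted p under 0.05. This was Eln, which encodes elastin, with 135 and 178 with imatinib, against 300.3 and 224 with vehicle (-0.64 ± 0.21, SE, limma adjusted p = 0.063). Fbln2, a fibulin of elastic fibres and basement membranes, had 83.0 and 116 with imatinib, against 124 and 132 with vehicle (-0.29, limma adjusted p = 0.49). Fbln1 and the microfibril gene Mfap5 were below the filter and their groups overlapped. Fbln1 had 54.2 and 15.7 with imatinib, against 84.5 and 51.6 with vehicle, and Mfap5 had 106 and 36.2 with imatinib, against 88.0 and 69.2 with vehicle. Elastic fibre genes therefore gave no called difference in either direction.

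Among 9 glycoprotein and matricellular genes, 4 fell, 1 rose and 4 did not pass. Mgp, an inhibitor of calcification that stromal cells secrete, had 271 and 287 on the imatinib arrays, against 675 and 636 on the vehicle arrays (-1.15 ± 0.13, SE, limma adjusted p = 0.00016). Sparc, a collagen-binding matricellular protein, had 820 and 749 with imatinib, against 1561 and 1724 with vehicle (-1.04 ± 0.10, SE, limma adjusted p = 5.7e-05). In both genes every imatinib array was below every vehicle array by a wide margin. Fstl1, a secreted relative of Sparc, had 257 and 219 with imatinib, against 482 and 412 with vehicle (-0.83 ± 0.16, SE, limma adjusted p = 0.0046). Fn1, which encodes fibronectin and is also made by macrophages, fell less, with 663 and 635 with imatinib, against 967 and 1004 with vehicle (-0.58 ± 0.11, SE, limma adjusted p = 0.0037). Fn1 was not called with its probe sets averaged (adjusted p = 0.051; from 5.4e-05 to 0.051 over 11 other settings).

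Serpinf1 moved the other way. It encodes pigment epithelium-derived factor, a secreted collagen-binding inhibitor of angiogenesis, and had 967 and 961 on the imatinib arrays, against 583 and 486 on the vehicle arrays. The groups were separate and the 1.76-fold rise (log2 difference 0.82 ± 0.12, SE, limma adjusted p = 0.00088) was kept in all 4 fits without 1 array. A second probe set of Serpinf1 lay below the filter, at 22.2 and 22.6 with imatinib, against 28.0 and 49.5 with vehicle, and averaging both probe sets gave 0.23 (adjusted p = 0.39; from 1.3e-05 to 0.39 over 11 other settings). Thbs1, the adhesive glycoprotein thrombospondin 1, had 230.3 and 207 with imatinib, against 164 and 133 with vehicle. Both imatinib arrays were higher, but the difference of 0.48 ± 0.20 (SE, limma adjusted p = 0.14) did not pass, and another probe set gave -0.017. With equal array medians Thbs1 passed as higher (0.64, adjusted p = 0.029; from 0.029 to 0.91 over 10 other settings).

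The other 3 genes of this class had negative differences and did not pass. Thbs2, the related thrombospondin of stromal cells, had 191 and 169.7 with imatinib, against 225 and 254 with vehicle (-0.35, limma adjusted p = 0.24). Postn, periostin, had 96.9 and 106 with imatinib, against 181 and 163 with vehicle (-0.61, adjusted p = 0.085), and passed as lower without a variance trend and on the macrophage-marker scale. Sparcl1, the Sparc relative hevin, had 389 and 421 with imatinib, against 503 and 479 with vehicle (-0.26, with a 95% interval from -0.55 to 0.03). In all 3 both imatinib arrays lay below both vehicle arrays.

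Probe sets of the same gene mostly moved alike. Several probe sets above the filter were present for 14 tested genes, and in 12 all of them lay on the same side of 0, the exceptions being Col14a1 and Thbs1. When each probe set was tested on its own, 18 of 47 probe sets of the tested genes were lower, where 7.42% of all 12483 tested probe sets were, and 1 was higher. The 3 probe sets of Bgn (-1.18, -1.51 and -1.35) and both probe sets of Col1a2 (-0.93 and -1.48), Pcolce (-1.35 and -0.96) and Serpinh1 (-0.74 and -0.89) passed. For Col3a1 (-1.02), Sparc (-1.04), Fstl1 (-0.83) and Col4a1 (-0.67) the dimmer probe set gave smaller decreases that did not pass, at -0.65, -0.55, -0.32 and -0.46.

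**Figure D3:**
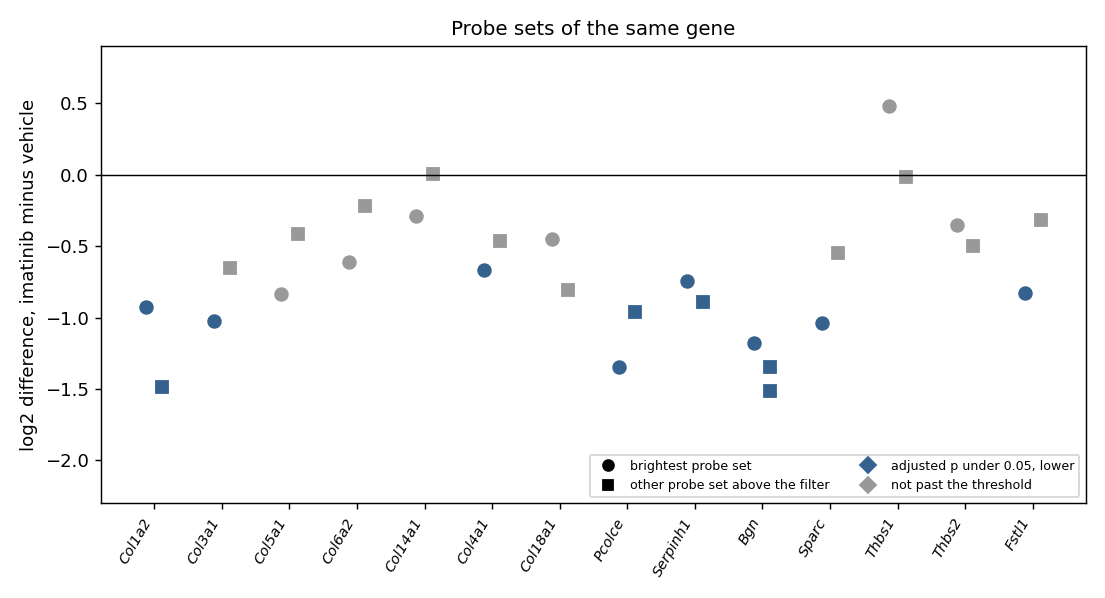
Log2 difference, imatinib minus vehicle, of each probe set above the signal filter for the 14 tested matrix genes that have several, with circles for the brightest probe set and squares for the others. Blue marks an adjusted p under 0.05 over 12483 probe sets. All points but 1 each of Col14a1 and Thbs1 lie below 0.

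A wider list of 77 other matrix genes did not show the same balance. The median log2 difference of its 29 tested genes was -0.01, and its parts differed. It was 0.05 for 8 collagen-modifying enzymes, 2 of them negative, where 4299 of all 8145 tested genes were. It was -0.11 for 4 further collagens and -0.05 for 2 basement membrane genes. For the 15 other genes it was -0.40, with 10 negative. Of the 29 genes, 5 were lower, where 8.73% of all tested genes were, and 2 were higher, where 6.8% were. The 5 were Ccn2, a matricellular gene that transforming growth factor beta induces (-1.32), Tnc, the adhesion-modulating glycoprotein tenascin C (-1.08), the latent growth factor-binding gene Ltbp3 (-0.84), Plod2, a lysyl hydroxylase that prepares collagen for crosslinking (-0.84), and the secreted stromal gene Igfbp7 (-0.51). Ccn2 had 197 and 153 with imatinib, against 537 and 432 with vehicle, and Tnc had 216 and 225 with imatinib, against 487 and 514 with vehicle. The 2 higher genes were Ogn, a small leucine-rich proteoglycan, with 412 and 393 with imatinib, against 215 and 171 with vehicle (0.95), and the matricellular gene Ccn1, with 1012 and 1031 with imatinib, against 676 and 614 with vehicle (0.64). Of 8 tested collagen-modifying enzymes in this list, Plod2 was the only one called, and the differences of the 8 ran from -0.84 to 0.41. Of its 6 tested further collagens and basement membrane genes, 0 passed in limma, and 0 had an unadjusted p under 0.05.

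Markers of other cells moved on the same arrays, and their part in the matrix result was not tested. Of 8 tested fibroblast markers, 1 was lower, where 8.73% of all tested genes were, and the median was -0.14. That gene was Pdgfrb, a receptor kinase of fibroblasts and pericytes that imatinib inhibits, with 110.05 and 123 with imatinib, against 249 and 268 with vehicle (-0.97). The summed signal of 13 fibroblast markers was 3502 to 3544 with imatinib, against 3639 to 3706 with vehicle. Tcf4, which is not specific to fibroblasts, also counts in that median. It made up 54.7% of that sum and ran the other way, with 2069 and 2060 with imatinib, against 1858 and 1884 with vehicle. The other 12 markers summed to 1433 and 1485 with imatinib, against 1781 and 1822 with vehicle. Of the 8 tested markers, 6 had negative differences, and Tcf21 (0.48, limma adjusted p = 0.10) and Tcf4 (0.14) had positive ones. The 6 include Fap (-0.02), which passed the signal filter through the vehicle arrays only, with means of 79.8 with imatinib and 80.8 with vehicle. All 12 tested epithelial markers were lower (median -2.01), with the largest falls in Krt19 (-2.89), Tspan8 (-2.50) and Epcam (-2.42), and the summed signal of 13 markers was 6201 to 6248 with imatinib, against 29122 to 29345 with vehicle. Smooth muscle Acta2 (-0.82) and pericyte Rgs5 (-0.36) were the 1 of 3 tested genes called lower in each of their lists. All 3 tested genes of each list had negative differences, with medians of -0.82 and -0.40. Des of the smooth muscle list (-1.12, limma adjusted p = 0.060) and Notch3 of the pericyte list (-0.75, limma adjusted p = 0.053) were not called. Des passed the signal filter through the vehicle arrays only. The summed signals of these lists were 1258 to 1308 and 1462 to 1468 with imatinib, against 2120 to 2341 and 1900 to 1998 with vehicle. Acta2 made up 72.9% of the smooth muscle sum and Rgs5 75.7% of the pericyte sum.

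Endothelial markers gave 0 calls among 6 tested genes in limma and 0 at an unadjusted p under 0.05. Their summed signal over 9 genes was 1161 to 1266 with imatinib, against 1284 to 1374 with vehicle, and the brightest were Kdr (0.03) and Esam (-0.01). In the list of GIST and interstitial Cajal cells, Edn3 (-0.91) and Kit (-0.64) were the 2 lower of 5 tested genes, where 8.73% of all tested genes were lower. The difference was negative for 4 of the 5 and positive for Prkcq (0.44, limma adjusted p = 0.23). The summed signal of the list was 1098 to 1144 with imatinib, against 1540 to 1680 with vehicle. Kit made up 62.1% of it, and the other 4 genes summed to 477 and 454 with imatinib, against 578 and 561 with vehicle. Of 14 macrophage markers, the defining genes of the labelled cells, 10 were higher, where 6.8% of all tested genes were. Among the 10 were Mertk (1.16), Itgam (0.97) and Lyz2 (0.86), and 0 of the 14 were lower (0 lower at an unadjusted p under 0.05). Itgam passed the signal filter through the imatinib arrays only, with a mean signal of 179 with imatinib, against 76.3 with vehicle, so its rise is a description and the count holds 9 without it. Their summed signal was 169287 to 176634 with imatinib, against 142520 to 142734 with vehicle. Of the glial list only Sox10 was tested and it did not pass (-0.23), and 0 of the 3 mesothelial genes with a probe set lay above the filter. No marker of any list was at 0 on any array, but the lowest signal, 1.34 for Actg2 on imatinib replicate 2, lay far below the filter.

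**Figure D4:**
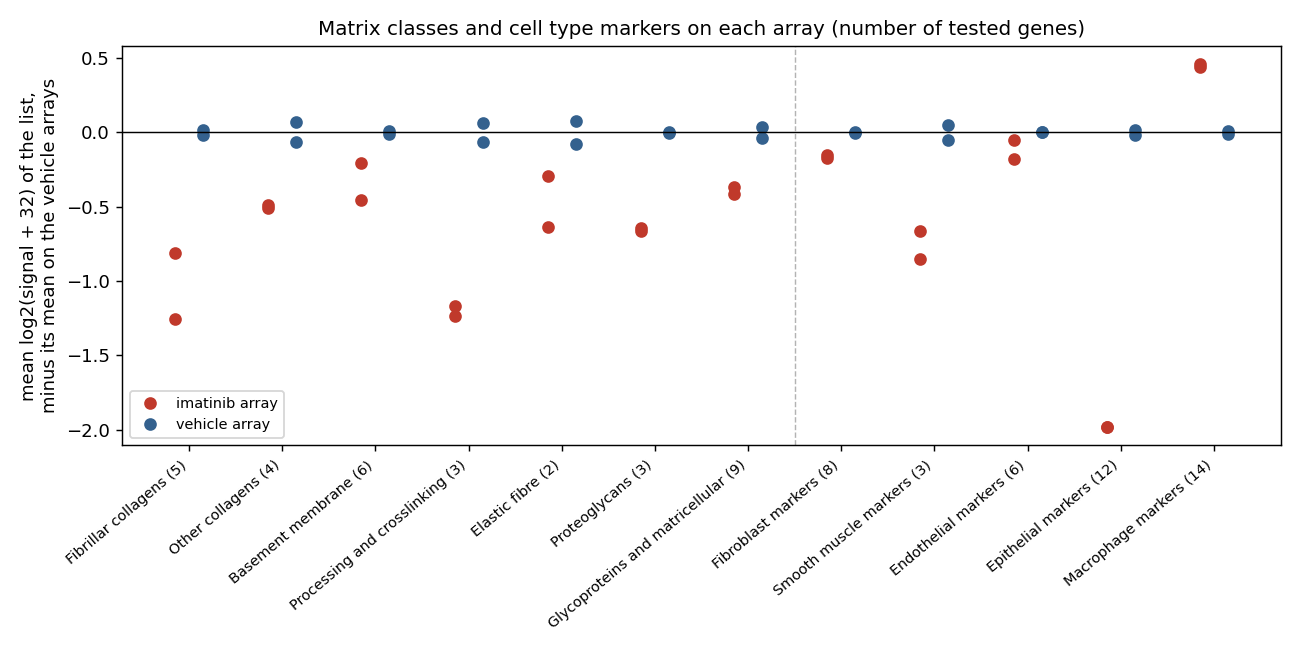
Mean log2(signal + 32) of the tested genes of each matrix class and of 5 cell type marker lists on each array, minus the list's mean on the vehicle arrays, with the number of tested genes in brackets. Fibrillar and processing and crosslinking genes lie near or below -0.81 on both imatinib arrays, and basement membrane genes at -0.46 and -0.21. Fibroblast markers, Tcf4 among them, lie at -0.17 and -0.15, epithelial markers near -1.98 and macrophage markers at 0.46 and 0.44.

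The number of calls depended on the scale. The median array signal was lower with imatinib (121.5 and 133, against 151.5 and 140.4 with vehicle), and setting the array medians equal raised every log2 difference by 0.16. On that scale 14 of the 32 matrix genes were lower, where 6.04% of all tested genes were, and 2 were higher, where 12.9% were. A scale on which the mean of 14 macrophage markers was equal on all arrays lowered every log2 difference by 0.45. On it 29 of the 32 were lower, where 62.6% of all tested genes were, and Serpinf1 was still higher, where 1.38% were. The 29 include Col6a1, which passed the signal filter through the vehicle arrays only, so its fall there (-0.82) is a description. Higher genes made up 43.8% of all calls on the deposited scale, 68.1% with equal medians and 2.15% on the macrophage-marker scale. A measure of RNA quality lay apart by group: the ratio of 3' to 5' signal for Gapdh, which rises as RNA is degraded or copied short, was 2.34 and 2.09 with imatinib, against 2.91 and 2.76 with vehicle. Its part in the matrix result was not tested.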

How the data were processed

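Gene expression was measured on Affymetrix arrays in sorted tumour macrophages, 2 arrays per group, from 200 ng of RNA each, per the labels. The deposited values are linear signal intensities from the authors' MAS5 analysis (Affymetrix Expression Console is named in the submitters' processing notes, without settings). Each array had the same trimmed mean of 500.3, so that abundant transcripts influence the level of all others, and dim signals are noisy.

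Of 22690 probe sets, 64 controls were left out. By the platform annotation, 20380 of the other 22626 carry a single symbol, 691 carry several and 1555 carry none. By gene ID, 20351 matched RefSeq and 0 symbols were updated. Signals were taken as log2(signal + 32), which understates changes of dim genes. Each gene's brightest probe set with 1 symbol was tested if its mean on that scale reached the 40th percentile of probe sets. Groups were compared with limma 3.58.1 in R 4.3.3 (lmFit, then eBayes with trend, two-sided, Benjamini-Hochberg adjustment over 8145 genes, threshold 0.05; 2 residual and 8.71 prior degrees of freedom). The procedure was tested on simulated data. Figures were drawn with matplotlib 3.10.9 in Python 3.11.15.

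The 40 genes, the wider and marker lists, the tests and the alternatives were chosen with earlier results of these data known, so no p over the list is given. All 40 genes were to be named, with up to 5 called genes per direction and each called enzyme of the wider list, and up to 3 called genes of each marker list or its 2 brightest. Lists held fibroblast, macrophage, epithelial, smooth muscle, endothelial, pericyte, mesothelial, glial, and GIST and Cajal cell markers. Alternatives were other pseudocounts, filters, normalizations, probe set rules and variance models, a replicate block, and each array left out. Same-numbered arrays did not deviate together from their group means (r = -0.06 across probe sets).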

Additional observations from a re-analysis of the deposited data

How the results depend on the processing

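Across the alternatives that keep all 4 arrays and give a count, 11 to 14 matrix genes fell, except on the macrophage-marker scale (29). The tested set changed in some: 12 of 38 fell without a filter (4.37% of all tested genes) and 13 of 19 with a 60th percentile filter (9.1%). With probe sets averaged 12 of 29 fell (7.41%), and without probe sets that may hit several transcripts 11 of 27 (7.96%). In the others 32 were tested, and 6.04% to 8.96% of all tested genes fell, or 62.6% on the macrophage-marker scale. The median difference of the matrix genes was negative in each setting. Their median was -0.71 with a pseudocount of 1, -0.48 with 100, -0.74 with a 60th percentile filter, -0.51 under quantile normalization, -0.45 with equal array medians and -1.06 on the macrophage-marker scale. On these last 2 scales the basement membrane median was -0.29 and -0.90 and the processing and crosslinking median -1.19 and -1.80, and the fibrillar median was -1.47 on the macrophage-marker scale. The processing and crosslinking median was also -1.24 with a pseudocount of 100, -1.05 without a filter, -1.15 with probe sets averaged and -1.51 without probe sets that may hit several transcripts. With no filter Lox enters that class, and without those probe sets Loxl1 is its only tested gene. Higher matrix genes numbered 2 with equal medians and 0 with probe sets averaged. Over all genes, 554 were higher; this was 356 without a filter, 1050 with equal medians, 112 on the macrophage-marker scale (5100 lower there, against 711) and 199 without a variance trend.

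Leaving out each array in turn, where the lone array of a group is assumed to vary like the others, gave 291 to 476 higher genes (291 without imatinib replicate 1, 349 without vehicle replicate 1). It gave medians of -0.76 to -0.55 for all matrix genes, -0.66 to -0.27 for basement membrane (-0.27 without imatinib replicate 1) and -1.43 to -1.21 for processing and crosslinking. Col5a1, Col6a2, Col18a1 and Eln also passed as lower without imatinib replicate 2, and Eln without vehicle replicate 2. Col4a2 ran from -0.53 to 0.13 and Lamb1 from -0.012 to 0.59, each changing sign without vehicle replicate 2. Lamb1 was also -0.16 on the macrophage-marker scale, Col14a1 was 0.0040 on its other probe set, also when probe sets that may hit several transcripts were left out, and Thbs1 was -0.017 on its other probe set. None of these 4 genes was called in the fit reported above. With the replicate number as a block, which the labels do not tie to shared animals or batches, 14 matrix genes were lower and 1 higher, and 430 of all genes were higher and 635 lower. Causes of these shifts were not tested where the setting itself does not give them. Signals near background limit what can be said of the 6 genes below the filter.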
